A study of Rattus norvegicus with 16 samples.

Results

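The genes described here are 10 genes named with the CCN family and with the transcriptional targets of YAP and TGF-beta: Ctgf, Cyr61, Nov, Wisp1, Wisp2, Ankrd1, Thbs1, Tgfb1, Tgfb2 and Amotl2. They were taken by gene name from the array design, on which 12 probes carried these names out of 30367 probes for 26269 gene names. The question was whether the low signal of Ctgf in H35 cells silenced for Pdrg1 was shared by other genes that answer to YAP or TGF-beta, and which of them lay above background at all. The genes were chosen by name, but around the low signal of Ctgf in the silenced cells, a measured value of these arrays, so the values of Ctgf are given as a description and carry no test.

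RNA was measured in H35, a rat hepatoma cell line, on one-color Agilent arrays. There were 4 groups with 4 biological replicates each, and every group carried a SureSilencing shRNA plasmid and had been selected with the antibiotic G418. CN-10 was 1 stable clone holding a plasmid with a negative control sequence. The clones 4-18 and 3-44 were 1 stable clone each with the Pdrg1 silencing sequences shRNA4 and shRNA3, and these 3 clones were selected with up to 4 mg/ml G418. The group shRNA3T was a pool that had received the shRNA3 plasmid by transient transfection and was enriched with 1.8 mg/ml G418, so it differed from the control in cloning and in selection as well as in the plasmid. All comparisons with the control use the same 4 CN-10 arrays and are therefore not independent of each other. A difference between stable clones can be one of the clone as much as of the shRNA, and with 1 clone per plasmid these cannot be told apart.

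CCN proteins are secreted matricellular proteins that bind integrins, growth factors and matrix. Ctgf and Cyr61 are the best known readouts of the Hippo pathway: when its kinases are inactive, YAP and TAZ enter the nucleus, bind TEAD factors and switch on both genes together with Ankrd1 and Amotl2. Ctgf and Thbs1, the matrix protein thrombospondin-1, are also induced by TGF-beta through SMAD proteins, and thrombospondin-1 can in turn release TGF-beta from its latent complex. In the liver these genes are known from fibrosis and regeneration, and hepatocytes and stellate cells can both make Ctgf.

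The promoters of Ctgf and Cyr61 are shown because TEAD factors are known to bind the word GGAATG, and these members had the lowest log2 differences from the control in 3-44 and shRNA3T. They are the 250 bases before the gene start in RefSeq (build GRCr8, where the genes are named Ccn2 and Ccn1), both on the minus strand and written 5′ to 3′, with GGAATG or its complement CATTCC in capitals. The Ctgf window is chr1:22624615-22624864 and the Cyr61 window is chr2:237225690-237225939.
Ctgf: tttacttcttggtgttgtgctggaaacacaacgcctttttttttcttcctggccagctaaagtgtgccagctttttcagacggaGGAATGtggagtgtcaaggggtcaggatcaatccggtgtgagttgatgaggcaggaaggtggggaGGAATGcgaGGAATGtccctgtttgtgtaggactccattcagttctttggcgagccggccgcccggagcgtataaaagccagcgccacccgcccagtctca
Cyr61: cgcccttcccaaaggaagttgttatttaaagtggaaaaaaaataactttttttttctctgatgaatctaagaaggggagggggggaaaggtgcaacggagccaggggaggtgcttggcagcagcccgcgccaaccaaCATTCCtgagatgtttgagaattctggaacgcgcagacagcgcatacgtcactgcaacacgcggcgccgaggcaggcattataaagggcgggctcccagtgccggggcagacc

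The Ctgf window held 3 matches, which began 166, 101 and 92 bases before the gene start, and the Cyr61 window held 1 match at 113 bases. Of the other members with a promoter at hand, Thbs1 had 1 match at 47 bases and Amotl2 had 1 at 76 bases, while the windows of Tgfb1 and Tgfb2 did not contain these letters. Searched on both strands over the 33469 promoters of the same length, 12.1% held at least 1 match and 0.0807% held at least 3. Nov, Wisp1, Wisp2 and Ankrd1 were not among the 6 members with a promoter. A match describes these letters only and was not tied to binding.

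The probes of Thbs1, Amotl2 and Tgfb1 are 60 bases long and are shown because 1 gave a signal near the limit of detection, 1 a level with no passing difference and 1 the clearest rise. The probe of Amotl2 lies at chr8:107706680-107706739 on the plus strand and that of Tgfb1 at chr1:80910123-80910182 on the plus strand of rn4, the build of the array files, which give no position for the Thbs1 probe.
Thbs1: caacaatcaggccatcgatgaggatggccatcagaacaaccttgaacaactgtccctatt
Amotl2: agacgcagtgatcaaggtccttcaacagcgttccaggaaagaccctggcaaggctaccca
Tgfb1: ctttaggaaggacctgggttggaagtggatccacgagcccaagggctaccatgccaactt

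Array quality bears on these genes because most of them were dim. Between 53.1% and 74.3% of the spots of an array were well above background, and the 4-18 arrays were the dimmest, from 53.1% to 64.1%. No slide held arrays of more than 1 group, and that of 4-18 was scanned on another day, so effects of slide and of group cannot be told apart. Pdrg1 itself, the silenced gene, had normalized log2 intensities of 13.41 to 13.88 in the control clone, and of 11.57 to 13.34, 11.89 to 12.95 and 12.39 to 12.97 in 4-18, 3-44 and the shRNA3T pool. Every silenced array thus lay below every CN-10 array, by 0.77, 0.99 and 0.85 on average (log2), yet none of these differences passed in limma (adjusted p = 0.129, 0.105 and 0.143; exact permutation p = 0.0286 each, the smallest that 4 arrays against 4 allow). Replicate 1 was the lowest Pdrg1 array in every group. In a fit of replicates 2 to 4 alone, added after seeing the data, the differences were -0.41, -0.82 and -0.79 and all passed (adjusted p = 0.00647, 0.000306 and 0.000212).

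A probe was taken as well above background on an array when the scanner software flagged at least 50% of its spots so. By this measure 2 members, Cyr61 and Tgfb1, were above background on all 16 arrays, and 6 were so throughout 1 group or more: these and Ctgf, Wisp2, Tgfb2 and Amotl2. Ankrd1 and Thbs1 were above background on some arrays only. No array put Nov or Wisp1 well above background, so that only an upper bound to their level was measured in these cells.

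**Figure D1:**
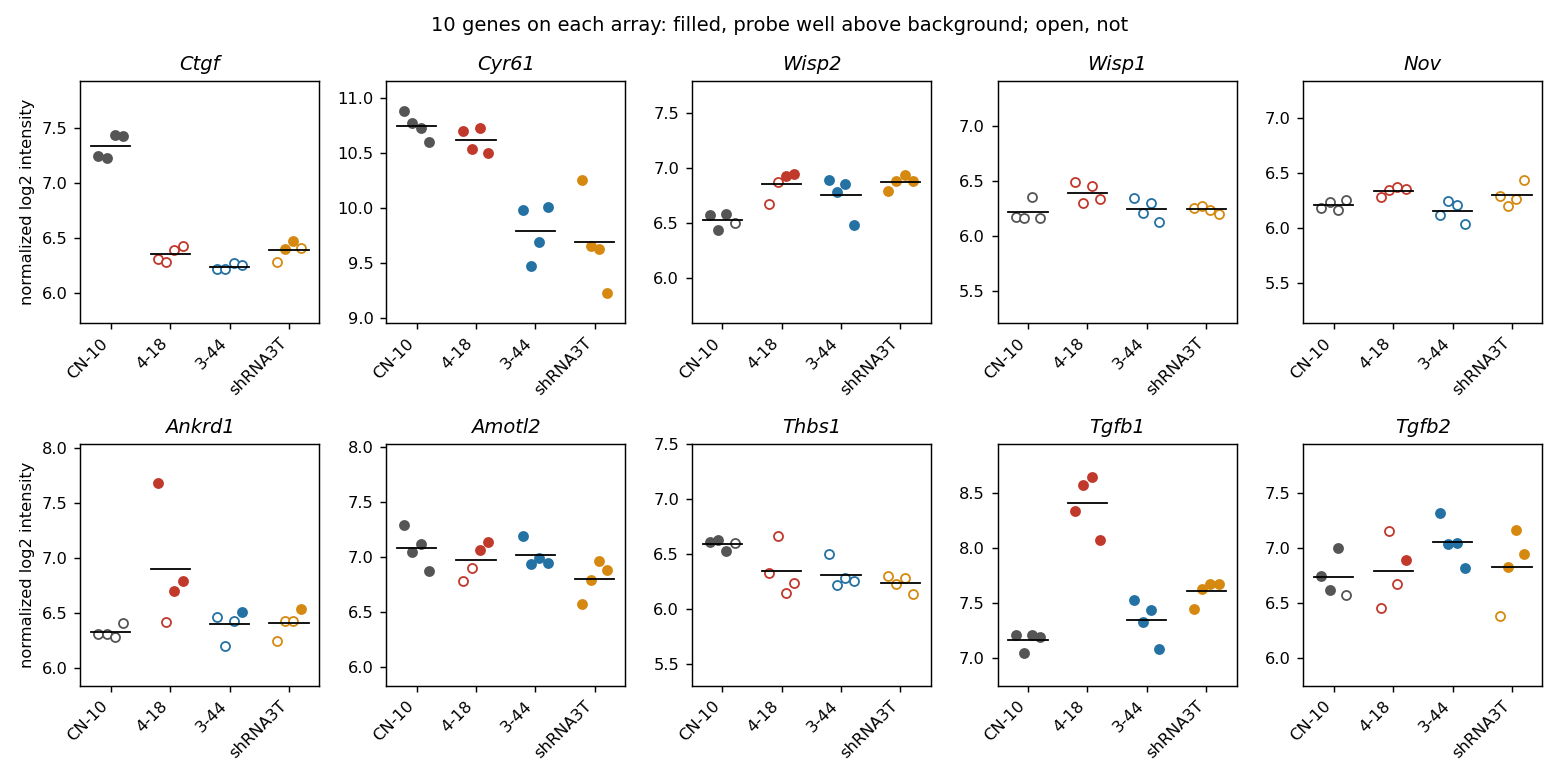
Normalized log2 intensity of the 10 genes on each of the 16 arrays, 1 panel per gene with its own vertical scale, 4 arrays per group and black bars at the group means. Filled points are arrays on which the probe was well above background and open points those on which it was not; Ctgf separates CN-10 from all 12 silenced arrays, Cyr61 separates CN-10 from 3-44 and shRNA3T, and Tgfb1 is highest in 4-18.

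After quantile normalization Ctgf read lower in all 3 silenced groups than in the control, and in 4-18 this depended on the scaling: the log2 difference of 4-18 from CN-10 was -0.98 after quantile normalization, -0.65 in the unscaled deposited values and 0.055 with the arrays scaled by their 75th percentile. Its probe (10 spots per array, chr1:21327574-21327633, minus strand, rn4) read 7.24, 7.23, 7.44 and 7.43 (normalized log2 intensity) on the quantile-normalized CN-10 arrays 1 to 4. The 4-18 arrays read 6.31, 6.28, 6.39 and 6.43, the 3-44 arrays 6.22, 6.22, 6.27 and 6.25, and the shRNA3T arrays 6.28, 6.40, 6.47 and 6.41. All 12 silenced arrays lay below all 4 control arrays.

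The means of Ctgf were 7.33 ± 0.11 in CN-10, 6.39 ± 0.08 in shRNA3T, 6.35 ± 0.07 in 4-18 and 6.24 ± 0.03 in 3-44 (SD, n = 4), a log2 difference from CN-10 of -0.95, -0.98 and -1.09. The probe passed the background flag on no array of 4-18 or 3-44, so that these 2 groups have no order, on 2 of 4 in shRNA3T and on all 4 in CN-10. Set against the floor of each array (its dimmest probe still flagged as above background), Ctgf after quantile normalization read 2.02-fold lower in 3-44. That floor is no strict limit of detection, since brighter readings could go unflagged. On CN-10 replicate 4, for example, Thbs1 read 6.60 unflagged above a floor of 6.23. No such ratio is given for 4-18, where the direction turned with the scaling. Ctgf was dim in the control as well: before normalization its mean spot signal was 152 to 196 in CN-10 and 56.4 to 69.9 in the silenced groups. Since whole cultures were measured, fewer cells that make a transcript and less transcript per cell cannot be told apart, here and below.

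Cyr61, a CCN protein whose gene is regulated by YAP much as Ctgf is, was the brightest member (1 spot per array, chr2:243824364-243824423, minus strand, rn4) and fell in the 2 groups that carried shRNA3. Its values were 10.88, 10.77, 10.72 and 10.59 in CN-10 and 10.70, 10.53, 10.72 and 10.49 in 4-18. They were 9.98, 9.47, 9.69 and 10.01 in 3-44 and 10.25, 9.65, 9.62 and 9.22 in shRNA3T. The control and 4-18 arrays overlapped, whereas every array of 3-44 and shRNA3T lay below every array of CN-10 and of 4-18.

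The means of Cyr61 were 10.74 ± 0.12 in CN-10, against 10.61 ± 0.11 in 4-18, 9.79 ± 0.26 in 3-44 and, in shRNA3T, 9.69 ± 0.42 (SD, n = 4). Its level fell by 0.95 in 3-44 (log2, SE 0.17, limma adjusted p = 0.00285) and by 1.05 in shRNA3T (SE 0.17, adjusted p = 0.000823), a ratio of 0.516 and 0.482 to the control. In 4-18 the difference was -0.13 (SE 0.17, adjusted p = 0.663). Both falls kept an adjusted p under 0.05 under each of the 29 alternatives run. The fall in 3-44 was short of 2-fold, and that in shRNA3T was so without its replicate 4 (-0.90). The difference between the silenced groups was itself larger than the spread: Cyr61 was higher in 4-18 by 0.82 than in 3-44 (adjusted p = 0.00288) and by 0.92 than in shRNA3T (adjusted p = 0.00132), while 3-44 and shRNA3T differed by 0.10 (adjusted p = 0.809). In the unscaled deposited values these differences of 4-18 were 0.31 and 0.26 and did not pass (adjusted p = 0.4 and 0.367), and with 75th percentile scaling they were 0.90 and 0.97 and passed. Its reading in 4-18 rests on the scaling of the arrays. The spot signals before normalization were 930 to 1181 in 4-18 against 1859 to 2227 in CN-10, and in the unscaled values of the deposited table the difference was -0.77, which passed (adjusted p = 0.0229).

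Ctgf and Cyr61 both read lower than the control in 3-44 and shRNA3T under each of the 3 scalings compared. In 4-18 the difference of Ctgf changed sign between them, and that of Cyr61 passed in limma in the unscaled values alone.

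Among the other CCN genes, Wisp2, a CCN protein that lacks the C-terminal module of its relatives, was slightly higher in 4-18 and shRNA3T. Its means were 6.53 ± 0.07 in CN-10, against 6.86 ± 0.13 in 4-18, 6.76 ± 0.19 in 3-44 and, in shRNA3T, 6.88 ± 0.06 (SD, n = 4), close to background. Wisp2 rose by 0.33 in 4-18 (limma adjusted p = 0.0156) and by 0.35 in shRNA3T (adjusted p = 0.0203), and the difference in 3-44 was 0.23 (adjusted p = 0.168). Without replicate 4 of 3-44 that difference passed too (0.32, adjusted p = 0.0263). In the unscaled values neither rise passed, and that in 4-18 was then 0.62 (adjusted p = 0.322). With 75th percentile scaling the rise in 4-18 passed and that in shRNA3T did not. The median of all probes in 4-18 then lay at 0.86. Without replicate 2 of CN-10 neither rise passed, and that in shRNA3T was also lost without its replicate 3 or 4. The probe was well above background on 3, 2, 4 and 4 arrays of CN-10, 4-18, 3-44 and shRNA3T.

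Nov (Ccn3) and Wisp1 (Ccn4) read between 6.03 and 6.49 on the 16 arrays, with no array well above background. These levels are bounds, and no difference is given for them.

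Of the YAP targets outside the family, Amotl2, an angiomotin-like protein that holds YAP outside the nucleus, differed little. It read 7.28, 7.04, 7.11 and 6.87 in CN-10, 6.77, 6.90, 7.06 and 7.13 in 4-18, 7.18, 6.94, 6.99 and 6.95 in 3-44, and 6.57, 6.79, 6.96 and 6.88 in shRNA3T. Each silenced group overlapped with the control. The log2 differences from CN-10 were -0.11, -0.06 and -0.28 (SE 0.11 each), with limma adjusted p of 0.54, 0.832 and 0.136.

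Ankrd1, a muscle and stress ankyrin-repeat protein, passed the background flag on no CN-10 array and on 3 of 4 arrays in 4-18. The 4-18 arrays read 7.68, 6.42, 6.70 and 6.79 against 6.28 to 6.41 in CN-10, 6.20 to 6.51 in 3-44 and 6.24 to 6.54 in shRNA3T. Against the floor of the control arrays its mean in 4-18 read 1.46-fold higher, which is not a strict bound. The log2 difference was 0.57 (SE 0.19, limma adjusted p = 0.0427), and replicate 1 carried much of it. Without that array it was 0.31, and the adjusted p stayed under 0.05 in 6 of the 16 fits that left out 1 array. The difference in the unscaled values was 0.90 and did not pass (adjusted p = 0.14). With 75th percentile scaling it was 1.61 and passed (adjusted p = 0.0128), where the median of all probes lay at 0.86. In 3-44 and shRNA3T the differences were 0.07 and 0.08 (adjusted p = 0.9 and 0.898).

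Tgfb1, the ligand TGF-beta 1, rose in 4-18. Its values there were 8.34, 8.57, 8.65 and 8.08, against 7.22, 7.05, 7.21 and 7.19 in CN-10. The 3-44 arrays read 7.53, 7.33, 7.44 and 7.08 and the shRNA3T arrays 7.45, 7.63, 7.68 and 7.68. The 4-18 arrays lay above all others, those of shRNA3T lay above the control, and those of 3-44 overlapped with it.

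Against CN-10, Tgfb1 rose by 1.24 in 4-18 (log2, SE 0.12, limma adjusted p = 2.89e-06), which is 2.37-fold, and by 0.44 in shRNA3T (adjusted p = 0.0253). In 3-44 the difference was 0.18 (adjusted p = 0.476). The rise in 4-18 passed under all 29 alternatives, whereas that in shRNA3T was lost without replicate 2 of CN-10 or without replicate 2, 3 or 4 of shRNA3T. Tgfb1 was higher in 4-18 by 1.06 than in 3-44 (adjusted p = 1.45e-05) and by 0.80 than in shRNA3T (adjusted p = 0.000227). In the unscaled values the difference from shRNA3T was 0.63 and did not pass (adjusted p = 0.129).

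Tgfb2, the ligand TGF-beta 2, was read by 3 probes that did not tell the same story. The probe with the highest signal (chr13:102816865-102816924, minus strand, rn4) gave means of 6.74 ± 0.19 in CN-10, against 6.79 ± 0.30 in 4-18, 7.06 ± 0.21 in 3-44 and, in shRNA3T, 6.83 ± 0.33 (SD, n = 4). None of its differences passed after quantile normalization. With 75th percentile scaling its difference in 4-18 was 1.04 and passed (limma adjusted p = 0.0326), where the median of all probes lay at 0.86. A second probe (chr13:102801650-102801709) read 6.61, 7.42, 6.50 and 7.27 in CN-10 and 6.19, 6.38, 6.43 and 6.40 in 4-18, where no array was well above background. By this probe the log2 difference of Tgfb2 in 4-18 was -0.60 after quantile normalization (limma adjusted p = 0.0335), with differences of -0.33 and -0.32 in 3-44 and shRNA3T that did not pass. The difference in 4-18 turned to 0.52 with 75th percentile scaling (adjusted p = 0.308) and was -0.20 in the unscaled values (adjusted p = 0.747). The control arrays of that probe spread over 6.50 to 7.42, wider than in the other groups. The third probe (chr13:102718952-102719009) passed the background flag on no array.

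Thbs1 lay at the limit of detection. It read 6.61, 6.63, 6.53 and 6.60 in CN-10, where 3 of 4 arrays were well above background, and no silenced array was. The values were 6.33, 6.67, 6.14 and 6.24 in 4-18, 6.50, 6.22, 6.28 and 6.25 in 3-44, and 6.30, 6.23, 6.28 and 6.14 in shRNA3T. All arrays of 3-44 and shRNA3T lay below the control, and replicate 2 of 4-18 lay above it, the array with the fewest spots above background.

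Against the floor of each array, Thbs1 read 1.20-fold lower in shRNA3T than in CN-10, which is not a strict bound. The log2 differences were -0.25, -0.28 and -0.35 (SE 0.10 each), and only that in shRNA3T passed in limma (adjusted p = 0.0898, 0.113 and 0.0301). In 4-18 the sign depended on the scaling, at 0.99 with the 75th percentile and 0.26 in the unscaled values, neither passing. In shRNA3T the adjusted p stayed under 0.05 in 10 of the 16 fits that left out 1 array. The losses came without replicate 1, 2 or 4 of CN-10 and without replicate 2, 3 or 4 of shRNA3T. Without replicate 2 of 4-18 the difference of Thbs1 passed in 4-18 as well (-0.35, adjusted p = 0.00456) and in 3-44 (-0.28, adjusted p = 0.0269).

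**Figure D2:**
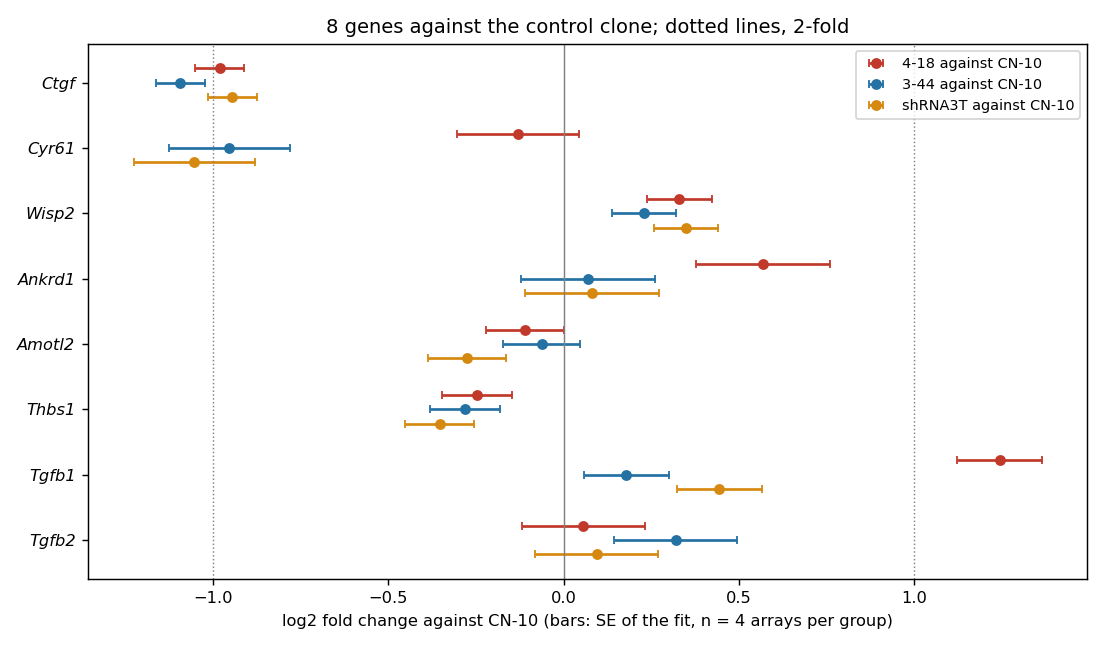
Log2 fold change against CN-10 of the 8 genes above background on at least 1 array, in 4-18, 3-44 and shRNA3T, with bars for the SE of the linear model (4 arrays per group, shared control arrays) and dotted lines at 2-fold. Values are after quantile normalization, where Ctgf lies near -1 in all 3 groups (-0.98, -1.09 and -0.95; 4-18 turns to 0.055 with 75th percentile scaling), Cyr61 in 3-44 and shRNA3T only (-0.95 and -1.05, against -0.13 in 4-18), and Tgfb1 is at 1.24 in 4-18.

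Ctgf is left out of the following counts, since the genes were picked around it. Counted at 2-fold with an adjusted p under 0.05, the rule of the study, 1 of the other 9 genes was called in 4-18 (Tgfb1), 0 in 3-44 and 1 in shRNA3T (Cyr61), beside 6.15%, 1.47% and 2.39% of all genes, each read by 1 probe. At 2-fold with an unadjusted p under 0.05 the count in 3-44 was also 0 (limma). Without the fold limit, 0, 1 and 2 of the 9 genes passed as lower in 4-18, 3-44 (Cyr61) and shRNA3T (Cyr61 and Thbs1), against 12.4%, 4.69% and 7.04% of all genes, and 1 had an unadjusted p under 0.05 as lower in 4-18. As higher, 3 passed in 4-18 (Wisp2, Ankrd1 and Tgfb1), 0 in 3-44 and 2 in shRNA3T (Wisp2 and Tgfb1), against 11.6%, 3.45% and 5.13% of all genes, and 1 had an unadjusted p under 0.05 as higher in 3-44. The median log2 difference of the 9 genes was 0.13 in 4-18, 0.03 in 3-44 and 0.08 in shRNA3T, and that of all probes 0.0057, -0.0031 and -0.0072.

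Between the silenced groups, 1 of the 9 genes was called in 4-18 against 3-44 (Tgfb1, beside 4.98% of all genes). None was called in 4-18 against shRNA3T (4.56% of genes) or in 3-44 against shRNA3T (2.12%), and at 2-fold with an unadjusted p under 0.05 the counts in limma were 0 as well. Ignoring the fold limit, Cyr61 and Tgfb1 passed in both comparisons of 4-18, as higher there, against 12.4% (3-44) and 11.3% (shRNA3T) of all genes. As lower in 4-18 no member passed, against 10.1% and 9.24%, and none had an unadjusted p under 0.05. Between 3-44 and shRNA3T no gene passed in limma, against 5.57% of all genes as lower and 5.36% as higher, and 2 had an unadjusted p under 0.05.

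The wider set of YAP/TEAD targets held 18 genes on the array out of 22 listed, 17 without Ctgf, which is again left aside. Of the 17, 3 passed as lower and 2 as higher in 4-18, 5 and 0 in 3-44, and 4 and 1 in shRNA3T. The shares of all genes passing as lower and as higher were 12.4% and 11.6% in 4-18, 4.69% and 3.45% in 3-44, and 7.04% and 5.13% in shRNA3T. In each comparison 12 of the 17 did not pass, and without adjustment 6 were lower and 0 higher in 3-44 (limma, p under 0.05). The median log2 difference of the 17 was -0.18, -0.16 and -0.13 in the order 4-18, 3-44 and shRNA3T. The list holds Cyr61 and was put together with earlier results of these arrays known. The counts of lower and higher genes moved with the scaling in every group. With 75th percentile scaling they were 0 and 5 in 4-18, 3 and 0 in 3-44, and 2 and 0 in shRNA3T, and in the unscaled values 5 and 1, 2 and 0, and 1 and 0. The shares of all genes above are those after quantile normalization. With 75th percentile scaling the median of all probes in 4-18 lay at 0.86, and that of the 17 genes lay 0.26 below it.

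The genes of the list that were called in at least 1 comparison, other than Ctgf and Cyr61, were F3 and Crim1. F3, tissue factor, the starter of blood clotting, fell by 1.04 in 3-44 (limma adjusted p = 2.49e-05) and by 0.63 in shRNA3T (adjusted p = 0.00101), with 0.19 in 4-18 (adjusted p = 0.223). Crim1, a membrane protein that binds BMP ligands, rose by 1.22 in 4-18 (adjusted p = 8.7e-08) and fell by 0.53 in 3-44 (adjusted p = 0.000967) and by 0.43 in shRNA3T (adjusted p = 0.00328). The fall of F3 in 3-44 and the rise of Crim1 in 4-18 passed in the unscaled values and with 75th percentile scaling as well. The fall of F3 in shRNA3T and both falls of Crim1 passed in neither (adjusted p of 0.0877 to 0.619).

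A few more genes of the list passed without reaching 2-fold, and they are named here after their values were seen. Gadd45a, a DNA damage response gene, fell by 0.91 in 3-44 and by 0.84 in shRNA3T, and its difference in 4-18 was -0.37, which did not pass. Both falls were lost in the unscaled values (adjusted p = 0.131 and 0.204) and the difference in 4-18 passed (-1.08, adjusted p = 0.0137). Myof, the membrane repair protein myoferlin, fell by 0.86 in 4-18 and by 0.57 in 3-44, and Nt5e, an ecto-nucleotidase, rose by 0.79 in shRNA3T; these 3 changes passed neither with 75th percentile scaling nor in the unscaled values. The small falls of Ccdc80 and Lats2 in 4-18 (-0.25 and -0.28) depended on the setting: Ccdc80 turned to 0.84 when the arrays were scaled by their 75th percentile, and Lats2 passed in 6 of 29 alternatives.

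**Figure D3:**
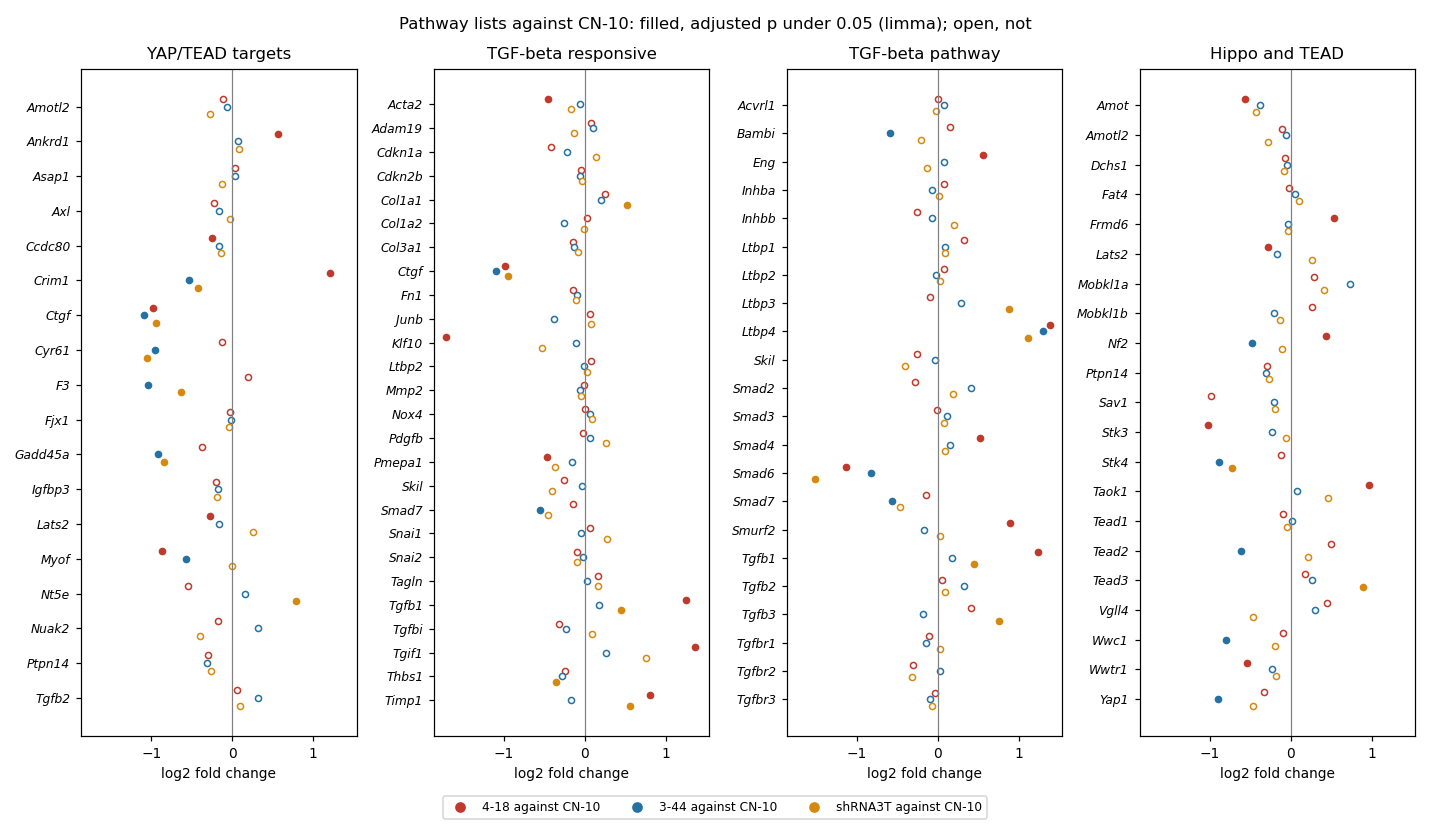
Log2 fold change against CN-10 of the genes of 4 pathway lists on the array, in 4-18 (red), 3-44 (blue) and shRNA3T (orange). Filled points had an adjusted p under 0.05 in limma and open points did not. The fill of Ctgf is to be set aside, since its low signal chose the genes and it carries no test. After quantile normalization Ltbp4 lies to the right and Smad6 and Ctgf to the left in all 3 comparisons. Ctgf in 4-18 turns to 0.055 with 75th percentile scaling.

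Of the TGF-beta targets, 26 of 27 listed were on the array, 25 without Ctgf. Of the 25, 3 passed as lower and 3 as higher in 4-18 (all genes, 12.4% and 11.6%), 1 and 0 in 3-44 (4.69% and 3.45%), and 1 and 3 in shRNA3T (7.04% and 5.13%). Without adjustment, 4 were lower and 0 higher in 3-44 (limma, p under 0.05). The medians were -0.019, -0.058 and -0.0078 (log2), close to those of all probes. Thbs1 and Tgfb1 are themselves on this list. With 75th percentile scaling 1 passed as lower and 13 as higher in 4-18, and in the unscaled values 4 and 1. The shares of all genes above are those after quantile normalization. With 75th percentile scaling the median in 4-18 was 0.86 for all probes and 0.98 for the 25 genes. In 3-44 and shRNA3T none passed in limma in either direction with 75th percentile scaling or in the unscaled values. With the former, 1 and 2 genes had an unadjusted p under 0.05 as lower, and 0 and 2 as higher.

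Klf10, an early response factor of TGF-beta, fell by 1.71 in 4-18 (limma adjusted p = 1.69e-05), and Tgif1, a SMAD corepressor, rose by 1.36 there (adjusted p = 0.00156), while neither passed in 3-44 or shRNA3T. Timp1, a metalloproteinase inhibitor named after its value was seen, rose by 0.80 in 4-18 and by 0.55 in shRNA3T. The fall of Klf10 in 4-18 passed under both other scalings. In the unscaled values the rises of Tgif1 and Timp1 in 4-18 were 0.62 and 0.64 and did not pass (adjusted p = 0.28 and 0.147), and that of Timp1 in shRNA3T passed under neither scaling.

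Of the ligands, latent binding proteins, receptors and SMADs of the pathway, 22 of 24 were on the array. In this list 1 passed as lower and 5 as higher in 4-18 (all genes, 12.4% and 11.6%), 3 and 1 in 3-44 (4.69% and 3.45%), and 1 and 4 in shRNA3T (7.04% and 5.13%). With 75th percentile scaling the counts were 1 and 13 in 4-18, 0 and 1 in 3-44, and 1 and 2 in shRNA3T, and in the unscaled values 3 and 2, 0 and 0, and 1 and 0. The shares of all genes above are those after quantile normalization. With 75th percentile scaling the median in 4-18 was 0.865 for this list and 0.862 for all probes. Ltbp4, which stores latent TGF-beta in the matrix, rose in all 3 groups, by 1.38, 1.30 and 1.11 (limma adjusted p = 0.000122, 0.000802 and 0.0017). The rises in 3-44 and shRNA3T did not pass in the unscaled values (adjusted p = 0.124 and 0.0943). Smad6, an inhibitory SMAD, fell in all 3, by 1.14, 0.83 and 1.52 (adjusted p = 4.18e-05, 0.00225 and 7.3e-06). Its fall in 3-44 passed neither with 75th percentile scaling (adjusted p = 0.103) nor in the unscaled values (adjusted p = 0.164). The receptors Tgfbr1 and Tgfbr2, named for their role although not called, were above background on all 16 arrays, and their differences, between -0.32 and 0.03, did not pass. In the unscaled values the difference of Tgfbr2 in 4-18 was -0.77 and passed (adjusted p = 0.0494), and that of Tgfbr1 was -0.62 and did not (adjusted p = 0.189).

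The Hippo pathway and its TEAD factors were represented by 21 of 26 listed names. Of these, 4 passed as lower and 3 as higher in 4-18 (all genes, 12.4% and 11.6%), 5 and 0 in 3-44 (4.69% and 3.45%), and 1 and 1 in shRNA3T (7.04% and 5.13%). Without adjustment 1 was higher in 3-44 (limma, p under 0.05), and with 75th percentile scaling the counts were 1 lower and 5 higher in 4-18, 3 and 0 in 3-44, and 1 and 1 in shRNA3T. In the unscaled values they were 6 and 0, 2 and 0, and 0 and 0. The shares of all genes above are those after quantile normalization. With 75th percentile scaling the median in 4-18 was 0.43 for this list and 0.86 for all probes. Stk3 (MST2), a kinase at the head of the pathway, was the 1 gene called, with a fall of 1.02 in 4-18 (limma adjusted p = 0.00174). The others are named after their values were seen. The related kinase Stk4 (MST1) fell by 0.88 in 3-44 and by 0.72 in shRNA3T (adjusted p = 0.000164 and 0.000535), and Yap1, the coactivator itself, fell by 0.89 in 3-44 (adjusted p = 0.0014). The differences of Yap1 in 4-18 and shRNA3T were -0.33 and -0.47, with adjusted p of 0.125 and 0.0544. Wwtr1, which encodes TAZ, fell by 0.54 in 4-18 (adjusted p = 0.0234), and Amot by 0.56 (adjusted p = 0.0107). In 3-44 Wwc1 fell by 0.80 and Tead2 by 0.61 (adjusted p = 0.000526 and 0.0441). The falls of Amot, Wwc1 and Tead2 did not pass in the unscaled values, and Amot turned to 0.35 with 75th percentile scaling. Other genes of the list rose: the kinase Taok1 by 0.97 (adjusted p = 0.00585) and Frmd6 by 0.54 (adjusted p = 0.0289) in 4-18, and Tead3, a TEAD factor, by 0.90 in shRNA3T (adjusted p = 0.00346). Nf2, the upstream protein merlin, rose by 0.44 in 4-18 and fell by 0.48 in 3-44 (adjusted p = 0.0127 and 0.0202), and its rise turned to -0.23 in the unscaled values. There the rises of Taok1, Frmd6 and Tead3 did not pass either (adjusted p = 0.336, 0.338 and 0.0625), nor did the falls of Stk4 in shRNA3T (adjusted p = 0.163) and of Nf2 in 3-44 (adjusted p = 0.442), while Yap1 in 4-18 passed as lower (-0.94, adjusted p = 0.00325). With 75th percentile scaling the falls of Wwtr1 in 4-18 and of Nf2 in 3-44 did not pass (adjusted p = 0.255 and 0.252). The falls of Stk3 in 4-18 and of Stk4 and Yap1 in 3-44 passed under both. Stk4 and Yap1 were thus both lower in 3-44, and the amount and location of the YAP protein were not measured on these arrays.

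The genes with values most like those of a member over the 16 arrays were found among the genes detected throughout 1 group or more, as the smallest root mean square difference after each was centred on its CN-10 mean. For Ctgf these were Gpsm3, Pigw and Tceal1, with differences of 0.119, 0.182 and 0.211 (log2). Ctgf was above background on 6 of the 16 arrays and Thbs1 on 3, so their differences rest largely on readings near the floor. For Cyr61 they were Mt1a, LOC360713 and Stk4, at 0.208, 0.213 and 0.244. For Thbs1, whose own range is small, they were Fnbp1, LOC686539 and Dfna5, at 0.061, 0.110 and 0.114. No other member of the 10 was among them. With 3 genes taken from 15736 or 15737 candidates, and Nov, Wisp1, Ankrd1 and Thbs1 not among the candidates, this cannot show whether a pattern was shared.

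The identity of the cells was checked with marker genes. All 9 hepatocyte markers were on the array, and 7 of them were above background on all 16 arrays. Of the 8 markers of stellate cells and fibroblasts, 1 was above background on all 16 arrays and 3, among them Lrat, were on no array. Of the 4 endothelial markers on the array, 1 was so on all 16 and 2, among them Pecam1, on none. Of the 5 macrophage and leukocyte markers and the 4 cholangiocyte markers, none was so on all 16, and Ptprc, Cd163 and Epcam were on none. The summed level of the stellate cell and fibroblast markers was 10.12 to 10.24 in CN-10, against 9.89 to 9.96 in 4-18, 10.01 to 10.13 in 3-44 and, in shRNA3T, 10.05 to 10.18 (log2). It was lowest in 4-18. Of this list, Des, the muscle and stellate cell filament desmin, fell in all 3 groups, by 1.17, 0.81 and 0.98 (limma adjusted p = 4.54e-05, 0.00358 and 0.000511). The cholangiocyte keratin Krt19 fell by 0.33, 0.54 and 0.52 (adjusted p = 0.0431, 0.00694 and 0.00527). It was above background on 4 arrays, all of 1 group, so these falls rest on readings near the floor. Of the 4 cholangiocyte markers 1 passed as lower and 0 as higher in each group. Krt7 (0.07, 0.05 and 0.02) and Sox9 (0.05, 0.15 and 0.30) had the other sign and did not pass. Des and Krt19 are named after their values were seen. Of the 8 stellate cell and fibroblast markers, 2 passed as lower and 0 as higher in 4-18 (Des and Acta2), 1 and 0 in 3-44, and 1 and 1 in shRNA3T, where the collagen Col1a1 rose by 0.52 (adjusted p = 0.0338). The shares of all genes passing as lower and as higher were 12.4% and 11.6% in 4-18, 4.69% and 3.45% in 3-44, and 7.04% and 5.13% in shRNA3T. With 75th percentile scaling the marker counts were 0 and 6 (where the median of all probes lay at 0.86), 0 and 0, and 0 and 0, and in the unscaled values 1 and 0, 0 and 0, and 0 and 0. The falls of Krt19 passed under neither of these scalings. Of the 9 hepatocyte markers, 5 passed as lower and 1 as higher in 4-18, and 0 as lower and 3 as higher in 3-44 and in shRNA3T. These counts stand beside the same shares of all genes as those of the stellate cell and fibroblast markers. Ttr, the plasma carrier transthyretin, rose by 2.93, 2.84 and 2.39, and Apoa1, the main protein of HDL, fell by 2.12 in 4-18 and rose by 2.18 in 3-44, both also named after their values were seen. The part of these shifts in the level of Ctgf was not tested.

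**Figure D4:**
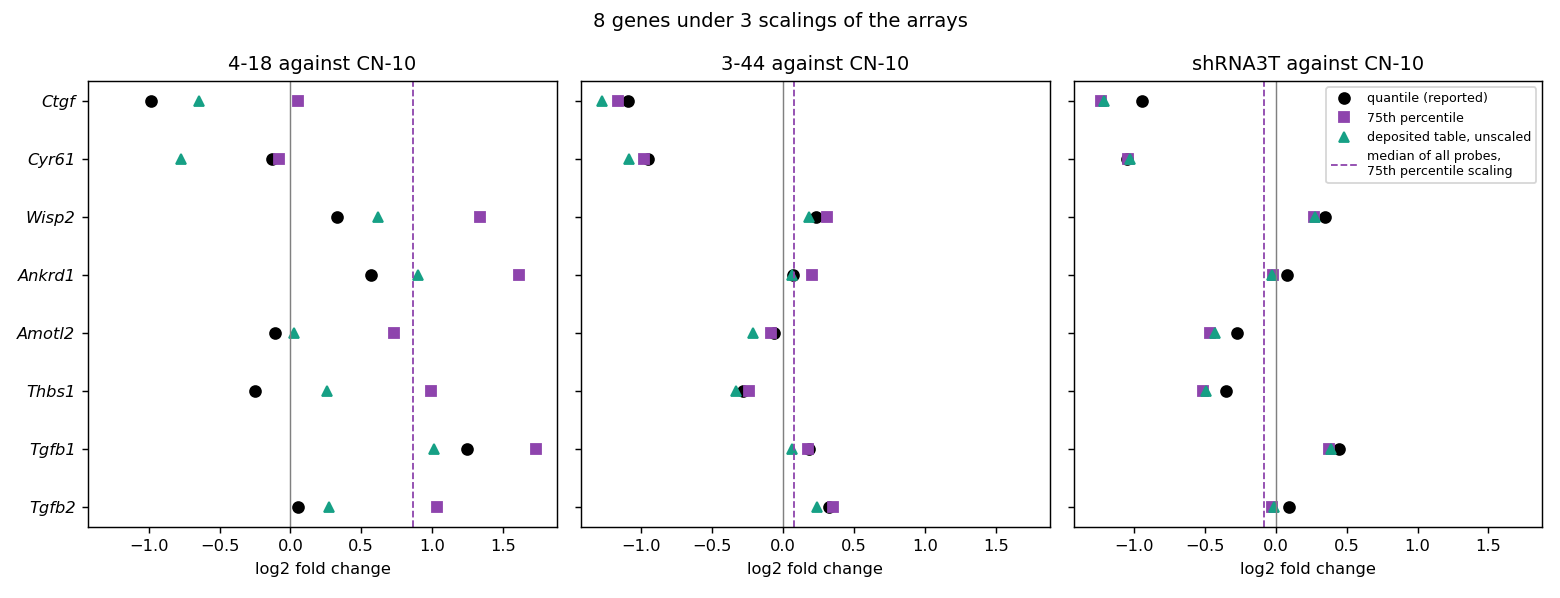
Log2 fold change of the same 8 genes against CN-10 with quantile normalization, with 75th percentile scaling and in the unscaled deposited table, 1 panel per silenced group; the dashed line is the median of all probes under 75th percentile scaling. In 4-18 that median lies at 0.86 and the dim genes move with it, Ctgf from -0.98 to 0.055, while in 3-44 and shRNA3T the 3 readings of Ctgf stay at -0.95 or lower.

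How the arrays were scaled moved the readings most in 4-18, and it moved calls in the other groups as well. When the 75th percentile of each array took the place of quantile normalization, the median of all probes in 4-18 moved to 0.86 above CN-10 (log2), and the reading of Ctgf to 0.055. Under that scaling Cyr61 read -0.08 and Tgfb1 1.73 against CN-10 in 4-18. Dim probes moved more than bright ones: Lrat, above background on no array, moved from -0.05 to 1.26, and Cyr61 from -0.13 to -0.08. No distance from that median is therefore given for the members in 4-18, where Ctgf was above background on no array. In shRNA3T, where its probe was above background on 2 of 4 arrays, Ctgf lay below the median of all probes by 1.15 under the same scaling. In 3-44 Ctgf was above background on no array, and no such value is given. The rises of Wisp2 and Tgfb1 and the fall of Thbs1 in shRNA3T did not pass with that scaling or in the unscaled values, while the falls of Cyr61 in 3-44 and shRNA3T and the rise of Tgfb1 in 4-18 passed in both.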

How the data were processed

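RNA of 16 cultures of H35 cells was hybridised to one-color Agilent rat arrays. The authors scanned the arrays with Feature Extraction 10.7.3.1, and the deposited intensity values are the mean signal and the median local background of each spot, on a linear scale and not normalized, with flags for spots above background, saturated spots and outlier spots. The authors also deposited another table of values, which after its lost decimal points were put back equalled log2 of the normexp-corrected median signal (largest difference 4e-11), unscaled.

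From these values, limma 3.58.1 (R 4.3.3) was used for normexp background correction (offset 50) and quantile normalization. Spots marked as outliers were left out, and those remaining were averaged per probe on the log2 scale. The linear model held 1 mean for each group over the 16 arrays, variances were moderated by empirical Bayes, and p-values were adjusted by Benjamini-Hochberg over all probes. A probe was called at 2-fold with an adjusted p under 0.05, and a gene was read by its probe with the highest mean. "Rose", "fell" and "passed" refer to an adjusted p under 0.05, of any size. The labels call the replicates biological, and p-values measure the spread between these samples of 1 clone or pool each.

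For a probe that no array of a group detected above background, a ratio to the floor was computed: the mean of the brighter group against, per array, the higher of the lowest signal well above background and the signal of the probe itself. It is not a strict bound, since probes above that lowest signal could go unflagged. Saturation was flagged on no spot, and precision is limited by the number of arrays. Shares of all genes given beside member counts use 1 probe per gene, chosen in the same way. Promoters were taken from RefSeq (GRCr8) for the 6 members listed there. No annotation of rn4 was used, so exons are not stated. Array names were kept; Ctgf, Cyr61, Nov, Wisp1 and Wisp2 are now Ccn2, Ccn1, Ccn3, Ccn4 and Ccn5.

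The 10 genes, the 5 pathway lists and the 5 marker lists were chosen with earlier results of these data known, and 1 gene of the pathway lists is not reported here and was left out of their counts. Genes of the pathway lists are named where they were called in at least 1 comparison with CN-10, and others only where the text says so. The steps were tested on simulated data. Alternatives covered background correction, scaling, filters, array weights, the fold limit, probe averaging, the samples in the model, the replicate number as a block, and leaving out each array.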

Additional observations from a re-analysis of the deposited data

Results flagged for a closer look

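Among the 48 groups of 4 arrays of the member probes, 3 held an array set apart from the others, and chance alone sets apart about 1 group in 20. The highest CN-10 array of Wisp1 read 6.355, at a gap of 0.957 of the range of its group, and this probe was not above background there. The lowest CN-10 array of Tgfb1 read 7.051, at 0.841 of the range, and the lowest shRNA3T array of the second Tgfb2 probe read 6.406, at 0.853.

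The difference from CN-10 was not the same in all silenced groups for Cyr61 and Tgfb1, by the limma test of the difference itself. Cyr61 was higher in 4-18 than in 3-44 by 0.823 (log2; adjusted p = 0.00288) and than in shRNA3T by 0.923 (adjusted p = 0.00132), and all 4 arrays of 4-18 lay above those of both groups. Tgfb1 was higher in 4-18 than in 3-44 by 1.06 (adjusted p = 1.45e-05) and than in shRNA3T by 0.8 (adjusted p = 0.000227), again with all 4 arrays above. In the unscaled deposited values the differences of Cyr61 were 0.31 and 0.26 and that of Tgfb1 against shRNA3T was 0.63, and these did not pass (adjusted p = 0.4, 0.367 and 0.129). The 4-18 slide was also the dimmest, with 53.1% to 64.1% of spots above background, and its part in these differences was not tested.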

How the results depend on the processing

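Of 54 fold changes of the members other than Ctgf, 1423 values under the alternatives kept their side of the threshold, 39 lost it, 36 gained it, and 2 changed sign while passing in 1 of the fits. Of the 1423, 62 had the other sign and passed in neither fit, among them Amotl2 (0.73) and Thbs1 (0.99) in 4-18 with 75th percentile scaling, and Thbs1 (0.26) in the unscaled values and Tgfb2 (-0.15) with the mean of its probes. The 2 came with 75th percentile scaling, Wisp2 and Tgfb2 in 4-18 against shRNA3T (1.07 and 1.06). Ctgf, which carries no test, turned to 0.055 in 4-18 against CN-10 and to 1.29 against shRNA3T. Of the genes of the pathway lists, Ccdc80, Pmepa1, Acta2 and Amot passed as lower in 4-18 after quantile normalization (-0.25, -0.47, -0.46 and -0.56) and turned to 0.84, 0.28, 0.27 and 0.35 with that scaling, Ccdc80 and Nf2 to 0.13 and -0.23 in the unscaled table, and Nf2 to -0.24 with the mean of its probes.

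In the order 4-18, 3-44 and shRNA3T against CN-10, then 4-18 against 3-44, 4-18 against shRNA3T and 3-44 against shRNA3T, leaving out 1 array gave 5.63% to 6.42%, 1.25% to 1.505%, 2.06% to 2.46%, 4.65% to 5.39%, 4.19% to 4.86% and 1.76% to 2.08% of all probes called. The member counts, here and below without Ctgf, were 1, 0, 1, 1, 0 and 0 and became 1 to 1, 0 to 1, 0 to 1, 0 to 1, 0 to 1 and 0 to 0. They moved without CN-10 replicate 4, 4-18 replicate 3, 3-44 replicate 1 or 4, or shRNA3T replicate 1 or 4. In the same order, the processed signal called 13.7%, 2.80%, 4.62%, 10.9%, 17% and 3.47% of probes, the unscaled values 11.0%, 0.669%, 1.38%, 8.77%, 9.71% and 1.14%, a 1.5-fold limit 15.2%, 4.70%, 7.25%, 13.3%, 12.5% and 6.24%, and no fold limit 23.6%, 7.85%, 11.8%, 22.1%, 20.1% and 10.6%. With 75th percentile scaling, 4-18 gave 45.7%, 38.1% and 50.4% of probes against CN-10, 3-44 and shRNA3T, with 6, 6 and 8 members.

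In the same order, the members called were 4, 1, 3, 4, 4 and 0 with the processed signal, 1, 1, 1, 2, 2 and 0 with a 1.5-fold limit, and 3, 1, 4, 2, 2 and 0 with no fold limit. In the unscaled table they were 1 in 3-44 against CN-10 and 0 in 4-18 against 3-44. With array weights they were 1 in 3-44 against CN-10 and 1 in 4-18 against shRNA3T, and 1 in the latter without replicate 1 of every group, an alternative added after seeing the data.

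Same-numbered samples deviated together in part (24 pairs, correlation -0.112 to 0.443, 12 over 0.1, among them all 6 pairs of replicate 1; 7 of 16 samples correlated best with their own number), and were not taken as pairs. The replicate block gave 5.99%, 1.51%, 2.31%, 4.86%, 4.39% and 2.06% of probes, with 1, 0, 1, 1, 0 and 0 members, and changed no call of the members. Of the other genes examined, Pdrg1 then passed in all 3 silenced groups (adjusted p = 0.0175, 0.0108 and 0.0183), Yap1 in 4-18 and shRNA3T (0.00584 and 0.00133), Nt5e and Tead2 in 4-18, and Smad7 and Klf10 in shRNA3T. Averaging probes cannot be applied to probe counts, nor fold limits to fold changes. Dimness limits all readings near 6.3 (log2), where Ctgf, Thbs1 and Ankrd1 lie in most groups; the cause of these shifts was not tested.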
